A study of Homo sapiens with 4 samples.

Results

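The lysosome genes described here were 53 genes that encode proteins of the lysosome or control its production, chosen as a list of symbols for the membrane proteins, the hydrolases, the proton pump and the TFEB factors, out of 23362 coding genes in the table. They comprised 6 genes of lysosomal membrane proteins, 24 of lumenal hydrolases, 2 of lumenal cofactors, 15 of the vacuolar proton pump (V-ATPase) and 6 of the TFEB factors, which are the transcription factors TFEB, TFE3 and MITF and the folliculin proteins that control them. Their expression was read by RNAseq of poly(A) RNA from MKN28, a human gastric adenocarcinoma cell line, in 4 stable lines with 1 library each. The Luc line carried luciferase as the control, WT carried KIAA1324, 3NQ carried KIAA1324 with asparagine changed to glutamine at its N-glycosylation sites, and ΔTM carried KIAA1324 without its transmembrane domain. The KIAA1324 constructs were HA-tagged, driven by a tet-on promoter that responds to doxycycline and delivered by retrovirus with drug selection, and the Luc line was made with the same tet-on viral system. The doxycycline dose and time for the RNA are not given in the labels or the methods, and neither source says whether a line is 1 clone or a pool. Each group had 1 line and 1 library, so that the differences given here have no replicates behind them and carry no p-value, and differences between lines or between library preparations cannot be told apart from differences between constructs.

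Lysosomes degrade material that arrives by endocytosis and autophagy. Their hydrolases work at acid pH, which the V-ATPase maintains by pumping protons across the lysosomal membrane at the cost of ATP. The pump has a membrane sector, V0, which passes the protons, and a cytosolic sector, V1, which hydrolyses ATP. TFEB, TFE3 and MITF are basic helix-loop-helix transcription factors that bind E-boxes, and an extended palindromic E-box, the CLEAR element, is known from the promoters of many lysosomal genes. Folliculin (FLCN) acts with FNIP1 or FNIP2 at the lysosomal surface as a GTPase-activating protein for the small GTPases RRAGC and RRAGD, and through them controls whether TFEB and TFE3 are kept in the cytoplasm.

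Promoters were searched for the TFEB motif in RefSeq windows of GRCh38.p14, from 250 bases before to 50 bases after each gene's start, and 40 of the 53 genes had such a window. The core E-box CACGTG was found in 11 of these 40 (27.5%) and in 12.6% of the 9299 expressed genes that had a window. The core with T before and A after it (TCACGTGA) was found in 6 of 40 (15.0%) and in 2.32% of the expressed genes. The 10-base CLEAR element GTCACGTGAC was found in 3 of 40 (7.5%), namely MCOLN1, GAA and ATP6V1G1, and in 0.946% of the expressed genes. All 3 motifs are palindromic and read the same on both strands, and each shorter one lies inside the longer one, so the 3 shares are nested. The 6 genes with the TCACGTGA motif are shown because their levels in the libraries are set beside the motif later, with the 120 bases before the start of the gene written 5′ to 3′ along the gene and every TCACGTGA in capitals, or the CACGTG alone where it does not have both the T and the A.
LAMP1: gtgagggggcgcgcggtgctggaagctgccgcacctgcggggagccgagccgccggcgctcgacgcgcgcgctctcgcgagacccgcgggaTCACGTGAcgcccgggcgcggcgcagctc
MCOLN1: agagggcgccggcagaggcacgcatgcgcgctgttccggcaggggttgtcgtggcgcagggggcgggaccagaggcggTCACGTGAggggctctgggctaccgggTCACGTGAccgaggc
CTSA: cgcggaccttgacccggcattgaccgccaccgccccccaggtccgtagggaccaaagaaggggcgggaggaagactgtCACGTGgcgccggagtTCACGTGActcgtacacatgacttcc
GAA: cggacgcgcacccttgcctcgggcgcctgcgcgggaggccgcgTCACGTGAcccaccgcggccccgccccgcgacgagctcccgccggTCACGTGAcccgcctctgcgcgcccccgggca
ATP6V0D1: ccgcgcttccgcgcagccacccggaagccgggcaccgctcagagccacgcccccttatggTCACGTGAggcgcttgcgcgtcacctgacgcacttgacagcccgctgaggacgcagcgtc
ATP6V1G1: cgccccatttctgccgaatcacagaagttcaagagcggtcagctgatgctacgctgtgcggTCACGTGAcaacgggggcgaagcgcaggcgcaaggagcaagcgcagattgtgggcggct
The windows are LAMP1 at chr13:113297119-113297238 on the plus strand, MCOLN1 at chr19:7522504-7522623 on the plus strand, CTSA at chr20:45891215-45891334 on the plus strand, GAA at chr17:80101461-80101580 on the plus strand, ATP6V0D1 at chr16:67481158-67481277 on the minus strand and ATP6V1G1 at chr9:114587649-114587768 on the plus strand. MCOLN1, CTSA and GAA held 2 cores in these 120 bases. MCOLN1 had its cores starting 41 and 14 bases before the start, and GAA had them 76 and 31 bases before it. LAMP1 held 1 core in the printed stretch, 28 bases before the start, and 4 more farther upstream. The other genes with a core E-box were CD63, CTSD, NEU1, ATP6V0B and FNIP1. The windows of FLCN, FNIP2, TFEB, TFE3, MITF and ATP6V1D did not contain these letters.

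The labels were checked on KIAA1324 itself. KIAA1324 was at 2.86 FPKM (fragments per kilobase of transcript, scaled to the mapped fragments of the library) in Luc. It reached 11185 in WT and 8197 in 3NQ, and was listed at 0 in the library labelled ΔTM. That 0 lies below the level in Luc and can be a failed estimate. Whether the construct was expressed there cannot be told, and the values are those of a library known only by its label. Summed FPKM ran from 560540 to 585104 over the 4 libraries, and the sequencing depth behind them is unknown. All 8 epithelial markers (EPCAM, CDH1, KRT8, KRT18, KRT19, CLDN4, CLDN7 and ESRP1) were listed at 144 to 8501 FPKM, their summed FPKM running from 8327 in WT to 14060 in Luc. Most of that difference lay in KRT8, at 8501 in Luc and 4510 in WT, and KRT18, at 3684 in Luc and 2115 in WT. Of 6 fibroblast and endothelial markers only COL1A1 reached 1 FPKM, at 12.1 to 15.3, and a further marker, PECAM1, was not listed. Of 6 leukocyte and macrophage markers only CSF1R reached 1 FPKM, at most at 1.26, with CD3E and MS4A1 at 0 in every library.

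Of the 53 lysosome genes, 51 reached 1 FPKM in 1 or more of the libraries, as 11769 rows of the whole table did. The cathepsin CTSS, a protease of antigen-presenting cells, was below that level at 0.157 to 0.415 FPKM. HEXA, a glycosidase gene, was listed at 0 in all 4 libraries, which can be a failed estimate. The lysosome genes together took 0.704% of the summed FPKM in Luc and 0.767% in WT, with 0.657% in 3NQ and 0.700% in ΔTM. Their summed FPKM was thus highest in WT, at 4327 against 4050 in Luc, 3845 in 3NQ and 3925 in ΔTM. In bulk RNA, a change in the number of cells that express a gene cannot be told apart from a change in RNA per cell.

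Differences between libraries are given as log2 ratios of (FPKM + 1), a scale that understates the change of genes with a low FPKM, and a gene was counted as higher or lower past 1.5-fold. In WT against Luc, 2 of 51 lysosome genes were past 1.5-fold higher (3.92%) and 0 were lower, against 3.36% higher and 3.34% lower of all genes tested. That share is near the share of all genes. The 2 genes were FLCN and FNIP1. Both overlap another listed gene, and without such genes 0 were past 1.5-fold. The median ratio of the 51 genes was 0.06, with 36 above 0, while the median of all genes was -0.0049 and 49.1% of them lay above 0. Above the upper quartile of all genes, which was 0.17, lay 18 of the 51, and 3 lay below the lower quartile of -0.18, where 25.0% of all genes lie on each side. WT was the highest of the 4 libraries for 30 of the 51 genes (58.8%), as it was for 33.6% of all symbols tested. In WT the lysosome genes thus lay mostly a little above Luc, with nearly all of them within 1.5-fold of it.

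**Figure D1:**
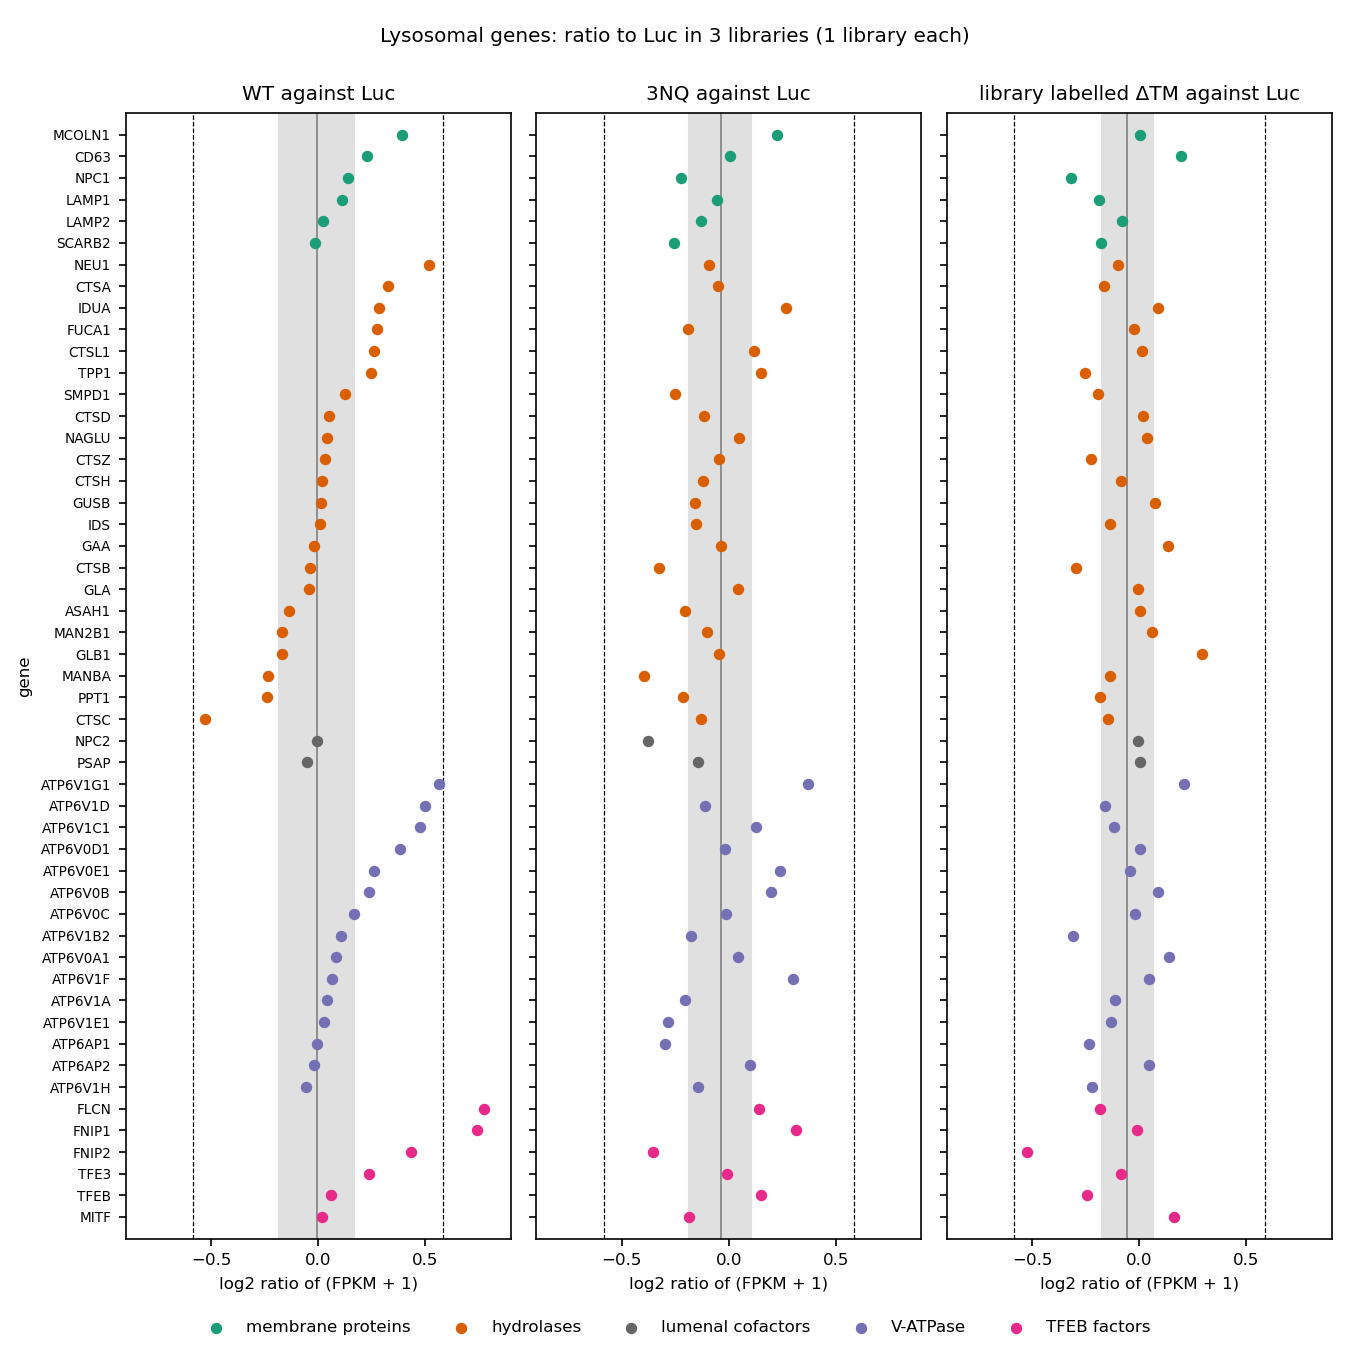
Each point is the log2 ratio of (FPKM + 1) to Luc of 1 of the 51 lysosome genes, on the horizontal axis, in WT, 3NQ and the library labelled ΔTM from left to right, with 1 library each and genes grouped by class. The grey band spans the quartiles of all 11769 genes tested, the grey line is their median and the dashed lines are 1.5-fold, which FLCN and FNIP1 pass in WT and no gene passes in 3NQ or ΔTM.

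In 3NQ against Luc, 0 of the 51 genes were past 1.5-fold in either direction, where 1.77% of all genes were higher and 2.57% lower. Their median ratio was -0.09, with 17 above 0, beside a median of -0.04 and 43.0% above 0 over all genes. In the library labelled ΔTM against Luc, 0 of the 51 were past 1.5-fold, where 1.54% of all genes were higher and 1.57% lower. Their median there was -0.08, with 19 above 0, beside -0.06 and 37.0% over all genes. These 3 comparisons share the Luc library, so a value of Luc that is off for a gene moves all 3 ratios of that gene together.

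The WT and 3NQ constructs were designed to differ at the N-glycosylation sites. The level of KIAA1324 RNA differed as well, at 11185 FPKM in WT and 8197 in 3NQ. The part of that level in the ratios between WT and 3NQ was not tested. In WT against 3NQ, 4 of the 51 genes were past 1.5-fold higher in WT (7.84%) and 0 were lower, against 2.89% higher and 1.58% lower of all genes. They were FNIP2, FLCN, NEU1 and ATP6V1D. With the libraries rescaled by the median of ratios NEU1 and ATP6V1D were each at 0.58, short of 1.5-fold, and with a pseudocount of 5 in place of 1 the count was 0. The median ratio was 0.16 with 42 of 51 above 0, where all genes had a median of 0.03 and 54.8% above 0. Above the upper quartile of all genes lay 23 of the 51, and 4 lay below the lower quartile. This comparison shares the WT library with that of WT against Luc.

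**Figure D2:**
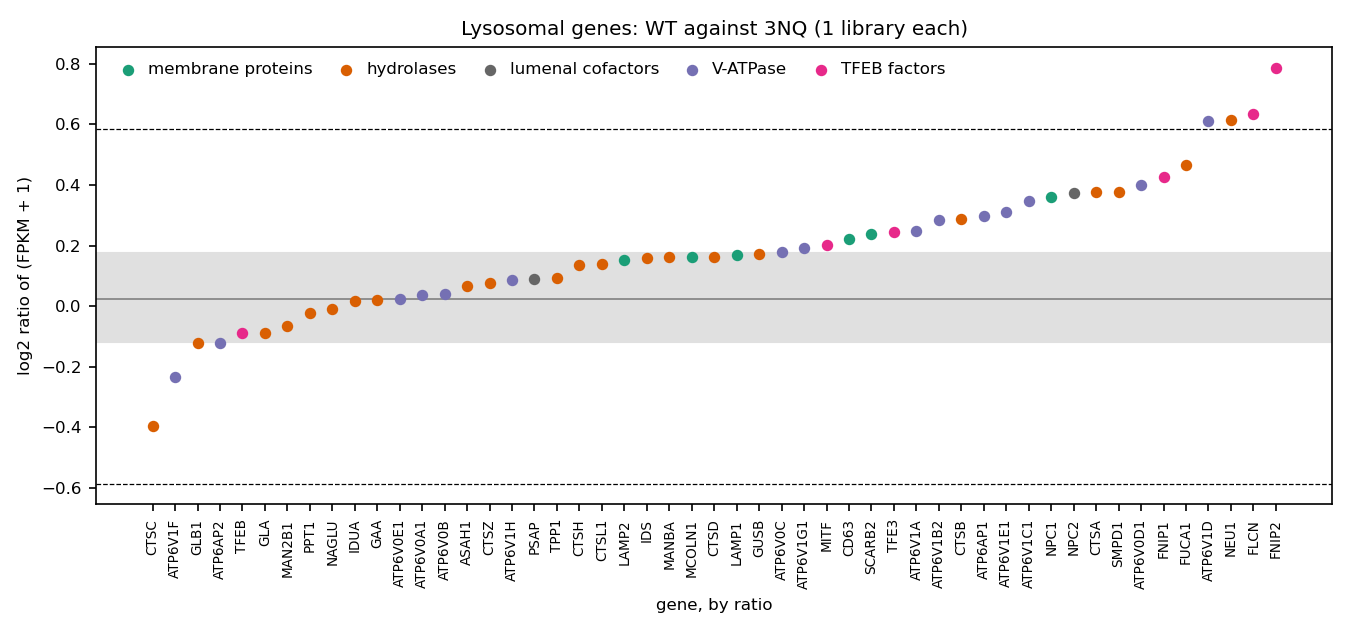
Each point is the log2 ratio of (FPKM + 1) in WT to 3NQ, on the vertical axis, of 1 of the 51 lysosome genes in the order of their ratios, with 1 library each and colours for the classes. The grey band spans the quartiles of all genes tested, the grey line is their median of 0.03 and the dashed lines are 1.5-fold; 42 genes lie above 0 and FNIP2, FLCN, NEU1 and ATP6V1D lie past 1.5-fold.

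In WT against Luc the TFEB factors had the highest median ratio of the classes. FLCN (ENSG00000154803, GRCh37 chromosome 17, 17115526 to 17140502, minus strand) was at 12.3 FPKM in Luc and 21.8 in WT, beside 13.7 in 3NQ and 10.7 in ΔTM. WT stood apart from the other three libraries, which lay within 3 FPKM of each other. The log2 ratio of FLCN was 0.78 in WT against Luc, or 1.71-fold, and 0.63 in WT against 3NQ. A second row of the symbol FLCN (ENSG00000264187), on the same strand and overlapping the first, was at 2.35, 2.24, 1.04 and 1.73 FPKM in Luc, WT, 3NQ and ΔTM, and with both rows summed the ratio in WT against Luc was 0.68. MPRIP, on the other strand, overlaps the end of FLCN and was at 107 to 145 FPKM, and its part in the level of FLCN was not tested.

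FNIP1, a partner that binds FLCN, lies on GRCh37 chromosome 5 at 130761584 to 131132710 on the minus strand. FNIP1 was at 10.2 FPKM in Luc and 17.7 in WT, with 12.9 in 3NQ and 10.1 in ΔTM. WT was again the highest, with 3NQ between WT and the nearly equal Luc and ΔTM, and the log2 ratios were 0.74 in WT against Luc and 0.31 in 3NQ against Luc. With a pseudocount of 5 the FNIP1 ratio in WT was 0.58, short of 1.5-fold. FNIP1 shares much of its span with RAPGEF6, a guanine nucleotide exchange factor gene annotated on the same strand. RAPGEF6 was at 1081 FPKM in Luc and at 5.99 to 7.18 in the other three libraries, so that the Luc value of FNIP1 stands beside a very high neighbour, and the part of that neighbour in the FNIP1 ratio was not tested.

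FNIP2, the other FLCN partner, lies on GRCh37 chromosome 4 at 159690290 to 159829201 on the plus strand and overlaps no other listed gene. It was at 5.41 FPKM in Luc and 7.66 in WT, beside 4.02 in 3NQ and 3.46 in ΔTM. WT was above Luc, while 3NQ and the library labelled ΔTM were below it, with log2 ratios of 0.43 in WT, -0.35 in 3NQ and -0.52 in ΔTM against Luc, and 0.79 in WT against 3NQ, the highest of the 51 genes in that comparison. The highest over the lowest FPKM of FNIP2 was 2.21, the widest spread of the 51 genes.

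The transcription factors themselves differed less. TFEB was at 5.73 FPKM in Luc and 6.01 in WT, beside 6.46 in 3NQ and 4.68 in ΔTM, with a log2 ratio of 0.06 in WT against Luc. TFE3, the most abundant of the 6, was at 28.3, 33.6, 28.1 and 26.6 FPKM in the same order, with a ratio of 0.24 in WT against Luc. MITF was at 3.40, 3.46, 2.87 and 3.92 FPKM in that order, with a ratio of 0.02 in WT against Luc. None of the 3 was past 1.5-fold in any comparison. The median ratio of the 6 TFEB factors against Luc was 0.33 in WT, 0.07 in 3NQ, and -0.14 for ΔTM, and 5 of the 6 were lowest in ΔTM, as were 31.8% of all symbols tested. Their summed FPKM in WT was 1.38 times that of Luc, beside 1.04 times in 3NQ and 0.910 times in ΔTM. Without TFE3 the ratio in WT was 1.53.

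**Figure D3:**
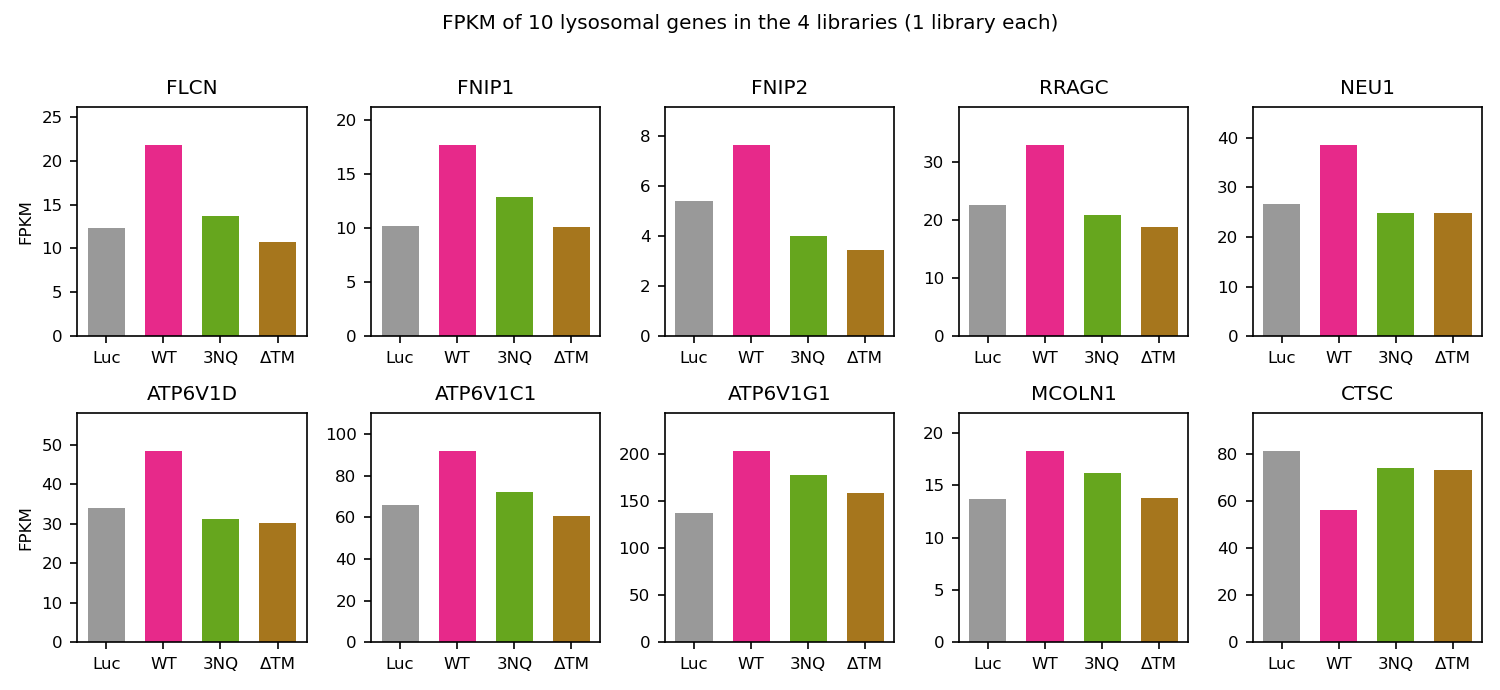
Bars give the FPKM, on a vertical axis that starts at 0 in each panel, of 9 lysosome genes and of RRAGC, the GTPase that FLCN acts on, in Luc, WT, 3NQ and the library labelled ΔTM, 1 library each and so without error bars. WT is the highest library for FLCN, FNIP1, FNIP2, RRAGC, NEU1, ATP6V1D, ATP6V1C1, ATP6V1G1 and MCOLN1, and the lowest for CTSC. These genes were chosen with their values known, and WT was the highest library for 30 of the 51 lysosome genes and for 33.6% of all symbols tested.

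The V-ATPase genes lay above Luc in WT for 12 of 15, with a median ratio of 0.11. In ΔTM 9 of 15 lay below Luc, with a median of -0.04. The median of the 15 in 3NQ was -0.01. Of all genes, 49.1% lay above 0 in WT. In ΔTM 40% of the V-ATPase genes lay above 0, near the 37.0% of all genes. None of the 15 passed 1.5-fold against Luc in any library. Their summed FPKM was 1312 in Luc and 1514 in WT, beside 1334 in 3NQ and 1278 in ΔTM, so that WT had 1.15 times the level of Luc, 3NQ 1.02 times and ΔTM 0.974 times.

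All 5 V0 genes among the 53 were above Luc in WT, with a median of 0.24, where 49.1% of all genes were above 0. V0 isoforms outside the 53 went both ways in WT. ATP6V0E2 and ATP6V0A4 were below Luc, at ratios of -0.24 and -0.59, and ATP6V0A2 and TCIRG1 above it, at 0.50 and 0.90. ATP6V0D1, which couples the rotor of V1 to the membrane ring, was at 71.1 FPKM in Luc and 93.0 in WT, with 70.2 in 3NQ and 71.2 in ΔTM. WT alone stood apart for ATP6V0D1, with a ratio of 0.38 against Luc. ATP6V0C, the main proteolipid of the ring, was at 191 FPKM in Luc and 214 in WT, beside 189 in 3NQ and 188 in ΔTM. ATP6V0E1, a small membrane subunit, was at 148, 177, 175 and 143 FPKM in the same order, so that 3NQ lay with WT rather than with Luc. ATP6V0B was at 56.0, 66.1, 64.2 and 59.5 FPKM and ATP6V0A1 at 20.8, 22.1, 21.5 and 23.0, and the median of the V0 genes in WT against 3NQ was 0.04, close to that of all genes.

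Of the 8 V1 genes among the 53, 7 were above Luc in WT, with a median of 0.09, and 6 were below it in ΔTM. Of all genes, 49.1% were above 0 in WT and 37.0% in ΔTM. ATP6V1G1, of the stalk that holds V1 to the membrane sector, had the highest ratio of the pump genes. ATP6V1G1 was at 137 FPKM in Luc and 203 in WT, with 178 in 3NQ and 159 in ΔTM, so that all 3 other lines were above Luc, with ratios of 0.56, 0.37 and 0.21. ATP6V1D, of the central rotor, was at 33.9 FPKM in Luc and 48.3 in WT, beside 31.3 in 3NQ and 30.2 in ΔTM. Only WT was high for ATP6V1D, with a ratio of 0.50 against Luc and 0.61 against 3NQ. ATP6V1D lies on GRCh37 chromosome 14 at 67761088 to 67826982 on the minus strand, where EIF2S1 (165 to 241 FPKM, highest in WT) and MPP5 (19.7 to 23.3 FPKM) overlap it on the other strand, and their part in its level was not tested.

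ATP6V1C1, a subunit at the joint of the V1 and V0 sectors, was at 65.8 FPKM in Luc and 91.9 in WT, beside 72.1 in 3NQ and 60.5 in ΔTM, with a ratio of 0.48 in WT against Luc. ATP6V1E1, the most abundant pump gene, was at 311, 316, 255 and 283 FPKM in the same order, so that it was nearly equal in Luc and WT and lower in 3NQ and the library labelled ΔTM. ATP6V1A and ATP6V1B2 encode the subunits of the catalytic ring. ATP6V1A was at 16.5, 17.0, 14.2 and 15.2 FPKM, and ATP6V1B2 at 29.8, 32.2, 26.2 and 23.8. The catalytic ring thus differed little between Luc and WT, with ratios of 0.04 and 0.11. ATP6V1F was highest in 3NQ, at 78.5 FPKM against 63.6 to 66.6 in the other three libraries. ATP6V1H, the lowest pump gene by ratio in WT, was at 38.8, 37.3, 35.0 and 33.2. In WT against 3NQ the V1 median was 0.27, and 7 of 8 were above 0 with ATP6V1F as the exception at -0.23. Of all genes, 54.8% were above 0 there. Of the accessory subunits, ATP6AP1 was at 57.7 FPKM in Luc, 57.5 in WT, 46.7 in 3NQ and 48.8 for ΔTM, with the last 2 the lowest. ATP6AP2, also known as the prorenin receptor, was at 72.1, 71.1, 77.4 and 74.4 FPKM, with no library far from the others.

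**Figure D4:**
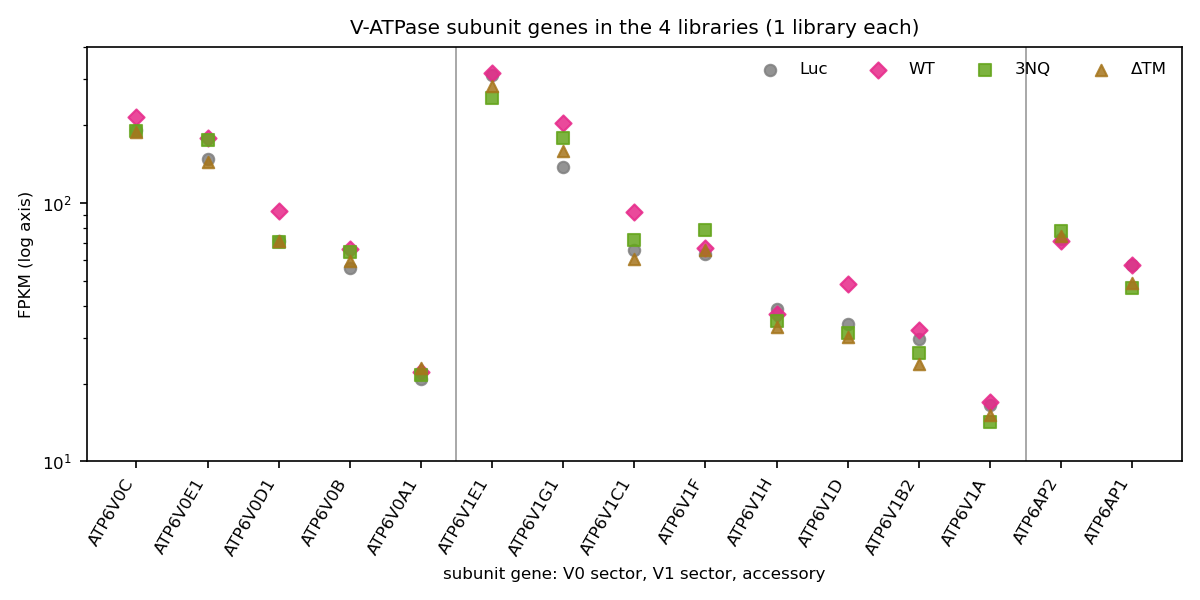
Points give the FPKM, on a log axis, of the 15 V-ATPase genes in Luc, WT, 3NQ and the library labelled ΔTM (1 library each), with grey lines between the V0 sector, the V1 sector and the accessory subunits and genes in the order of their level within each. WT is the highest point for 10 of the 15 genes, as it is the highest library for 33.6% of all symbols tested. WT stands clear of the others for ATP6V0D1, ATP6V1C1 and ATP6V1D. The levels of the subunit genes span from 14.2 FPKM for ATP6V1A in 3NQ to 316 for ATP6V1E1 in WT.

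Of the membrane proteins, 5 of 6 were above Luc in WT, with a median of 0.12, and 4 of 6 were below it in 3NQ and in ΔTM. None of the 6 passed 1.5-fold. Of all genes, 49.1% lay above 0 in WT, 43.0% in 3NQ and 37.0% in ΔTM. MCOLN1, a cation channel that releases calcium from the lysosome, was at 13.7 FPKM in Luc and 18.3 in WT, beside 16.2 in 3NQ and 13.8 in ΔTM. WT was the highest library for MCOLN1 and 3NQ the next, with ratios of 0.39 and 0.23 against Luc. CD63, a tetraspanin and the most abundant of the class, was at 250 FPKM in Luc and 293 in WT, with 251 in 3NQ and 286 in ΔTM. CD63 was thus higher than Luc by a like amount in WT and ΔTM, at ratios of 0.23 and 0.19.

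LAMP1, a heavily glycosylated protein of the limiting membrane, was at 198 FPKM in Luc and 214 in WT, beside 191 in 3NQ and 174 in ΔTM. LAMP2, its relative that also serves in chaperone-mediated autophagy, was at 71.0, 72.04, 64.7 and 67.0 FPKM in the same order. NPC1, which exports cholesterol from the lysosome, was at 23.1, 25.5, 19.7 and 18.3 FPKM, with the lowest ratio of the class in ΔTM, -0.32. SCARB2, the receptor that carries glucocerebrosidase to the lysosome, was the only one not above Luc in WT, at 54.2, 53.6, 45.3 and 47.7 FPKM. All 6 were higher in WT than in 3NQ, by ratios from 0.15 for LAMP2 to 0.36 for NPC1. Of all genes, 54.8% were higher in WT than in 3NQ. The summed FPKM of the class in WT was 1.11 times that of Luc, beside 0.963 times in 3NQ and 0.994 times in ΔTM, or 0.890 times in ΔTM without CD63.

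The hydrolases were spread around Luc in WT, with a median of 0.01, 13 of 22 above 0, and a summed FPKM 1.00 times that of Luc. Below Luc in 3NQ were 17 of the 22, with a median of -0.11, and the summed FPKM there was 0.910 times that of Luc. In ΔTM the median was -0.06 and the sum 0.945 times that of Luc. None of the 22 passed 1.5-fold against Luc. Of all genes, 49.1% lay above 0 in WT, 43.0% in 3NQ and 37.0% in ΔTM, where 9 of the 22 hydrolases did. The median of all genes was -0.04 in 3NQ and -0.06 in ΔTM, so the hydrolases in ΔTM lay near all genes. By type, the median in WT against Luc was 0.04 for the 8 peptidases, 0.0080 for 11 genes of glycosidases and a sulfatase, and -0.14 for the 3 lipid hydrolases.

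NEU1 (GRCh37 chromosome 6, 31825436 to 31830683, minus strand), the lysosomal sialidase that removes sialic acid from glycoproteins, had the highest ratio of the hydrolases in WT. It was at 26.6 FPKM in Luc and 38.5 in WT, with 24.8 in 3NQ and 24.8 in ΔTM. Only WT was high for NEU1, with ratios of 0.52 against Luc and 0.61 against 3NQ. CTSA, the carboxypeptidase that binds NEU1 and the beta-galactosidase GLB1 and protects them from degradation, was at 78.9 FPKM in Luc and 99.2 in WT, beside 76.2 in 3NQ and 70.3 in ΔTM. The order of the libraries was that of NEU1, with a ratio of 0.33 in WT against Luc. GLB1 had another order, at 29.3, 25.9, 28.3 and 36.1 FPKM, with WT the lowest and ΔTM the highest. FUCA1, the alpha-fucosidase, was at 24.4, 29.7, 21.2 and 24.0 FPKM, with a ratio of 0.46 in WT against 3NQ.

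CTSC, the dipeptidyl peptidase that activates serine proteases of granules, had the lowest ratio of all 51 genes in WT. It was at 81.2 FPKM in Luc and 56.0 in WT, with 74.0 in 3NQ and 73.3 in ΔTM. WT alone was low for CTSC, at -0.53 against Luc and -0.40 against 3NQ, short of 1.5-fold in both. The palmitoyl-protein thioesterase PPT1 was at 134 FPKM in Luc and at 114, 116 and 118 in WT, 3NQ and ΔTM. The beta-mannosidase MANBA was at 58.9, 49.8, 44.4 and 53.4 FPKM in Luc, WT, 3NQ and ΔTM, with the lowest ratio of the 51 genes in 3NQ, -0.40. PPT1 and MANBA were thus lower than Luc in all 3 other libraries.

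The most abundant hydrolases moved little in WT. CTSD, the aspartyl protease cathepsin D, was at 323 FPKM in Luc and 334 in WT, beside 298 in 3NQ and 327 in ΔTM. IDS, iduronate-2-sulfatase, was at 147, 147, 132 and 133 FPKM in the same order, and CTSB, cathepsin B, at 149, 145, 119 and 121. Both IDS and CTSB were thus nearly equal in Luc and WT and lower in the other two libraries. For IDS, GUSB, CTSL1 and ATP6V0C, which have related copies or pseudogenes in the genome, the split of shared reads is uncertain. The hydrolases not yet described ranged from -0.17 for MAN2B1 to 0.28 for IDUA in WT against Luc.

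Among the remaining peptidases, TPP1, which trims tripeptides from proteins, was at 20.6, 24.6, 23.0 and 17.1 FPKM in Luc, WT, 3NQ and ΔTM, so that ΔTM was the lowest. CTSH, an aminopeptidase, was at 129, 130, 119 and 121 FPKM, and CTSZ, a carboxypeptidase, at 18.6, 19.0, 18.0 and 15.7. Both had Luc and WT within 0.03 of each other on the log2 scale. Among the glycosidases, IDUA, which acts beside IDS on heparan and dermatan sulfate, was at 3.70, 4.71, 4.65 and 3.99 FPKM in that order, with 3NQ as high as WT. MAN2B1, the alpha-mannosidase, was at 30.7, 27.2, 28.5 and 32.0 FPKM, and GLA, the alpha-galactosidase, at 25.2, 24.4, 26.0 and 25.1. RP1-164F3.9, on the other strand, overlaps the whole of GLA and was at 132 to 189 FPKM, and its part in the level of GLA was not tested. GUSB, the beta-glucuronidase, was at 8.95, 9.05, 7.92 and 9.49 FPKM, and NAGLU, which acts on heparan sulfate, at 6.65, 6.87, 6.91 and 6.83. NAGLU had the narrowest spread over the 4 libraries of all 51 genes. Of the lipid hydrolases, ASAH1, acid ceramidase, was at 68.7, 62.4, 59.5 and 68.9 FPKM, low in WT and 3NQ. SMPD1, acid sphingomyelinase, was at 18.8, 20.6, 15.6 and 16.3 FPKM, lowest in 3NQ, with a ratio of 0.38 in WT against 3NQ.

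The lumenal cofactors are small proteins that present lipids to the hydrolases or to NPC1. PSAP, the precursor of the saposins and the most abundant of the lysosome genes, was at 461 FPKM in Luc and 443 in WT, with 417 in 3NQ and 462 in ΔTM. NPC2, which hands cholesterol to NPC1, was at 120, 120, 92.5 and 120 FPKM in the same order. 3NQ alone was low for NPC2, with a ratio of -0.38 against Luc, while WT and ΔTM lay within 0.01 of 0.

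The genes whose promoter sequences are printed above were read beside these levels. The 11 genes with a core E-box had a median ratio of 0.33 in WT against Luc, with 10 above 0, and the 29 without it had a median of 0.03, with 20 above 0. In 3NQ against Luc these medians were -0.02 with the core and -0.11 without it, and in the library labelled ΔTM against Luc 0.0040 and -0.09. In WT against 3NQ they were 0.19 and 0.16, so that genes with and without the core lay close together there. The 1 of the 11 not above Luc in WT was GAA, the acid alpha-glucosidase, at 13.8 FPKM in Luc and 13.6 in WT, beside 13.4 in 3NQ and 15.2 in ΔTM, and its window held 2 of the extended motifs. The 6 with TCACGTGA had a median of 0.36 in WT, -0.03 in 3NQ and 0.0030 in ΔTM against Luc, and of 0.18 in WT against 3NQ, where the 34 without it had 0.17. Over all 218 tested rows with TCACGTGA in their window the median in WT was 0.04, and over the 9144 without it -0.0045. For the core E-box the median in WT was 0.013 over all 1177 tested rows with it and -0.0069 over the 8185 without it. FLCN, FNIP2 and ATP6V1D were among the genes with the highest ratios and had no core in their window, so a high ratio in WT was found with and without the motif. These are descriptions of 1 library against 1 library, and a match is not evidence of binding.

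A wider list of 83 other lysosomal genes was read in the same way, in 5 groups (other hydrolases and cofactors, other membrane proteins and transporters, other V-ATPase isoforms, the Ragulator, Rag and BORC scaffold, and delivery by mannose 6-phosphate and sortilin), of which 68 passed the filter. In WT against Luc 1 was past 1.5-fold higher and 2 were lower, where 3.36% and 3.34% of all genes were, and the median was -0.01 with 32 of 68 above 0, where 49.1% of all genes were. In 3NQ against Luc 2 of the 68 were past 1.5-fold higher and 2 lower, where 1.77% and 2.57% of all genes were. The median was -0.10 with 20 of 68 above 0, beside -0.04 and 43.0% over all genes. In ΔTM against Luc 2 were higher and 0 lower, where 1.54% and 1.57% of all genes were. The median there was -0.07 with 19 of 68 above 0, beside -0.06 and 37.0% over all genes. In WT against 3NQ 2 were higher and 1 lower, where 2.89% and 1.58% of all genes were, with a median of 0.10 and 46 of 68 above 0, where 54.8% of all genes were. In WT against Luc these other lysosomal genes thus lay around the median of all genes.

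RRAGC, the GTPase that FLCN acts on, was at 22.5 FPKM in Luc and 32.9 in WT, with 20.8 in 3NQ and 18.8 in ΔTM. Like FLCN and FNIP2 it was highest in WT and lowest in ΔTM, with ratios of 0.52 against Luc and 0.63 against 3NQ. Of the other Rag genes, RRAGA was at 16.8, 20.7, 16.2 and 16.2 FPKM in Luc, WT, 3NQ and ΔTM, also highest in WT. RRAGB went the other way, at 6.04, 3.97, 3.86 and 7.25 FPKM in the same order. RRAGD was below 1 FPKM in every library. TCIRG1, an isoform of the V0 a subunit found in osteoclasts among other cells, was at 41.2 FPKM in Luc and 77.6 in WT, beside 70.8 in 3NQ and 101 in ΔTM. Luc was the lowest library for TCIRG1 and all 3 others were past 1.5-fold above it, with ratios of 0.90, 0.77 and 1.27. ATP6V0A2, another isoform of the a subunit, was at 8.18 FPKM in Luc, 12.0 in both WT and 3NQ, and 7.97 in ΔTM, short of 1.5-fold. ATP6V0A4, a further isoform, was at 1.80, 0.860, 1.63 and 1.97 FPKM, and ATP6V1C2, an isoform of the C subunit, at 0.932, 0.844, 0.968 and 2.15. The levels of ATP6V0A4 and ATP6V1C2 are near the filter of 1 FPKM.

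CTSL2, a cathepsin L paralogue, was at 47.3 FPKM in Luc and 28.2 in WT, beside 31.3 in 3NQ and 36.7 in ΔTM, with a ratio of -0.73 in WT, so that it was low where CTSL1 was not, since CTSL1 was at 84.6, 101, 92.0 and 85.4. LAMP3, a LAMP relative of dendritic cells and some tumours, was high in 3NQ alone, at 28.2 FPKM against 17.8 in Luc, 17.3 in WT and 18.0 in ΔTM. PLA2G15, a lysosomal phospholipase, was at 18.7, 18.7, 12.1 and 14.1 FPKM in Luc, WT, 3NQ and ΔTM, lower in the last 2 libraries. LAMTOR4, a subunit of the Ragulator scaffold that anchors the Rag GTPases, was at 61.6, 41.9, 37.8 and 58.0 FPKM in that order, low in WT and 3NQ.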

How the data were processed

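Poly(A) RNA of 4 MKN28 lines was sequenced, 1 library each (TruSeq kit, strand marking not stated in the sources used here). The authors removed reads with undetermined or low-quality bases, mapped with TopHat to GRCh37 and estimated FPKM for Ensembl release 72 genes with Cufflinks 2.1.1, with non-coding regions masked and with its corrections for fragment bias and for reads that map to several places. The deposited FPKM table holds 1 value per gene and library, already scaled for library size and length, with no counts, so no interval could be given.

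Log2 ratios of (FPKM + 1) were computed in pandas 2.3.3 and numpy 2.4.6 (Python 3.11.15), and figures were drawn with matplotlib 3.10.9. Genes tested reached 1 FPKM in 1 or more libraries. A repeated symbol took the row with the highest mean FPKM. The Cuffdiff p-values used in the study need the reads and were replaced by a 1.5-fold threshold, and the code for the calls was run on simulated data, which says nothing of the error of these libraries. Named genes were the TFEB factors, genes past 1.5-fold, the 3 most abundant of each class, those with the highest and lowest WT ratio and those with printed promoters, with others chosen after their values were seen. The 53 genes and the lists were chosen with earlier results of these data known. Promoter sequences are from RefSeq (GRCh38.p14), and CTSL1 was matched by a synonym. LAMP2, CTSB, CTSS, HEXA, MANBA, NAGLU, PSAP, ASAH1, ATP6V0E1, ATP6V1A, ATP6V1B2, ATP6V1C1 and ATP6V1H had no window. Alternatives were pseudocounts of 0.1 and 5, other filters, a 2-fold threshold, 2 rescalings, repeated rows summed, the mean of 3NQ and ΔTM as control, classes without their most abundant gene, all promoters as background and, chosen after seeing the data, removal of the 11 genes that overlap another listed gene.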

Additional observations from a re-analysis of the deposited data

How the results depend on the processing

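Over the summary values under these alternatives, 346 stayed close to the values given above and 39 moved, the latter mostly counts of 0 to 4 genes. With a pseudocount of 5, 1 lysosome gene (FLCN, 0.63) was past 1.5-fold in WT against Luc, FNIP1 falling to 0.58, and 0 were in WT against 3NQ, where FNIP2 was at 0.49, FLCN at 0.52, NEU1 at 0.55 and ATP6V1D at 0.56. With that pseudocount the other 83 lysosomal genes gave 1 lower in WT, 1 in each direction in 3NQ, 1 higher in ΔTM, and for WT against 3NQ 0 in either direction. With a pseudocount of 0.1, FNIP2 was past 1.5-fold lower in ΔTM (-0.63, 1 lysosome gene), and of the 83 genes 4 were lower in 3NQ and 2 lower in WT against 3NQ. At an FPKM of at least 5, 1 of the 83 was lower in WT and 1 higher in ΔTM. Rescaling by the median of ratios left 2 lysosome genes (FNIP2 and FLCN) in WT against 3NQ, with NEU1 and ATP6V1D both at 0.58, and of the 83 genes left 1 lower in WT, 1 lower in 3NQ and 1 higher in WT against 3NQ. Rescaling by the upper quartile left 1 of the 83 lower in 3NQ and 1 higher in WT against 3NQ, with ATP6V1D at 0.58. Among all calls in ΔTM against Luc, 49.5% were higher as given above, 60.5% after the median of ratios and 59.8% after the upper quartile. At 2-fold, 0 lysosome genes and 0 of the 83 were past the threshold in any comparison except 1 (TCIRG1) higher in ΔTM. With the mean of 3NQ and ΔTM as the control of WT, 4 lysosome genes were past 1.5-fold (FLCN 0.79, NEU1 0.62, ATP6V1D 0.64 and FNIP2 0.87) and FNIP1 was not (0.58). There the median of the lysosome genes was 0.16, that of the cofactors 0.10, and TCIRG1 turned to -0.14, since both libraries of that control were above Luc. Without the genes that overlap another listed gene, 0 lysosome genes were past 1.5-fold in WT against Luc and 2 (FNIP2 and NEU1) in WT against 3NQ. Without the most abundant gene of a class, the summed FPKM ratio was 0.890 for membrane proteins in ΔTM against Luc, 1.53 for TFEB factors in WT against Luc, and 0.767 in 3NQ against Luc and 1.30 in WT against 3NQ for the cofactors. Over all promoters of the table, 1.18% held TCACGTGA and 0.421% the CLEAR element. No paired analysis was possible because each group had 1 library. Of all genes, the share past the threshold and higher was 1.25% in WT against Luc and 0.85% in WT against 3NQ with the pseudocount of 5, 2.54% in WT against 3NQ after the median of ratios, 0.671% in WT against Luc at 2-fold, and 2.58% with the averaged control, and 3.29% were lower in ΔTM with the pseudocount of 0.1. The cause of each other change was not tested. With 1 library per group and unknown depth, ratios near 1.5-fold cannot be told from counting error or from differences between lines.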
